A study of Mus musculus with 177 samples.

Results

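The genes described here encode the contractile apparatus of skeletal muscle. They are 34 genes of 19937 measured, each read on its brightest probe set annotated to a single gene. They were followed in eyes and lungs of newborn C57BL/6 mice of postnatal day 7, none of which carries a named allele or transgene. The design held 62 mice. Mice breathed an inspired oxygen fraction (FiO2) of 0.08 in the hypoxia groups or 0.21 in the normoxia groups for 120 min, then 30 min of a reoxygenation gas, then 150 min of air before the tissues were taken. The groups are named by the first gas (N for normoxia, H for hypoxia) and the oxygen percentage of the reoxygenation gas: N21, N100, H21, H40, H60 and H100. The eye gave 9, 9, 9, 9, 9 and 11 arrays in that order and the lung 9, 10, 9, 9, 12 and 11, after 1 H40 array of each tissue had been set aside. The labels give no sex, litter or dissection record. The RNA protocol in the labels names a blood gradient and a blood RNA kit although the samples are solid organs.

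A striated muscle fibre shortens when myosin heads of the thick filament pull on actin of the thin filament. Calcium released from the sarcoplasmic reticulum through the ryanodine receptor binds troponin C, which shifts the troponin complex and opens the myosin sites on actin, and a calcium pump then returns the ion to the store. Z-discs, titin and the M-band hold the filaments in register, and creatine kinase regenerates ATP beside them. The lens, retina and cornea of the eye and the airways and alveoli of the lung hold no skeletal muscle, whereas the muscles that turn the eye are attached to its outer wall. The oesophagus of the mouse has a wall of striated muscle under a stratified epithelium, and heart muscle reaches into the large veins of the lung.

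The members varied together from array to array, and the letters around their start sites are shown first. RefSeq promoter windows (GRCm38.p6, 250 bases before to 50 after a start) were held for 27 of the 34 genes, in 32 windows. Each window was searched on both strands for the MEF2 motif and the CArG box, the classical sites of muscle promoters, for TATAAA and for the E-box CANNTG. The MEF2 motif was in 6 of 32 member windows against 3.19% of all 32851 windows, and the CArG box in 6 of 32 against 1.63%. TATAAA was in 11 of 32 against 13.6%, and CANNTG in 26 of 32 against 72.3%. Shown are the windows of 4 genes with the highest level in their role in both tissues: an actin, a light chain, a heavy chain and a Z-disc gene. Capitals mark the CArG, MEF2 and TATAAA matches, and E-boxes are left in lower case. The Acta1 window (skeletal alpha-actin, chr8:123894726-123895025 on the minus strand) holds TATAAA and a CArG box.
Acta1: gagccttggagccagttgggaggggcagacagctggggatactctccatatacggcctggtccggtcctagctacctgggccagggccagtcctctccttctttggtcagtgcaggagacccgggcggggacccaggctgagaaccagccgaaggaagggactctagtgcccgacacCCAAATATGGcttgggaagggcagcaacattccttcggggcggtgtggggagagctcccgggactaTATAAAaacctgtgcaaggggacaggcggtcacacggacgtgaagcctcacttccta
The Myl1 window (essential light chain, chr1:66945007-66945306 on the minus strand) holds TATAAA on the opposite strand.
Myl1: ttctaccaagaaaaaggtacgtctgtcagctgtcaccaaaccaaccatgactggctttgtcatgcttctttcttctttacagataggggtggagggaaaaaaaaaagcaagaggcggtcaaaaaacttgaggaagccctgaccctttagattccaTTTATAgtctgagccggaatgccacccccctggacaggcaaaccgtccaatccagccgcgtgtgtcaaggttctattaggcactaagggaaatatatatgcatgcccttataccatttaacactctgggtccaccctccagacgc
The Myh8 window (perinatal heavy chain, chr11:67276874-67277173 on the plus strand) holds an MEF2 match, and the TATAAA match of the opposite strand lies inside it.
Myh8: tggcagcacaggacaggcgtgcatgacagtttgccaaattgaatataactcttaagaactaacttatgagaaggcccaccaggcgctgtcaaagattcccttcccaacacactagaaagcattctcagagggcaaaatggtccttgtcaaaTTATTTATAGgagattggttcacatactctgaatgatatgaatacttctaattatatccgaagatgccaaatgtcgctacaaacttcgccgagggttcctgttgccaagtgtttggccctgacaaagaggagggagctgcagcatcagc
The Actn2 window (alpha-actinin, chr13:12340683-12340982 on the minus strand) holds none of those 3 motifs.
Actn2: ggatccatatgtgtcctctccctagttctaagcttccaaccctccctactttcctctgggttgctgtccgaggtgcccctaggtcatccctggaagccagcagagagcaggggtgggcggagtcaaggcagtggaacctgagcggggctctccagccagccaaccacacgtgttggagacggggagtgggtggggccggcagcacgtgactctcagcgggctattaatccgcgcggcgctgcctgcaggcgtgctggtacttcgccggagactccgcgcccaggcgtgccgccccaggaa
A match describes letters in these windows and says nothing of binding. MEF2 matches were in Asb5, Myh1, Myh4, Myh8, Pvalb and Ttn, and CArG boxes in Acta1, Asb5, Ldb3, Myh4 and Myom1.

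The series comprises 177 arrays of eye, lung and brain. All 56 eye and 60 lung arrays used correlated best with the mean profile of their own tissue. The H40 eye array set aside correlated at 0.957 with the lung mean and the H40 lung array at 0.986 with the brain mean. Values are on a log2 scale, and whether the tissues were normalized together is not given in the sources used here, so levels were not compared between tissues. Arrays also fall into 3 runs of consecutive deposited records, called submission runs here, and whether these are processing batches is not given. No label says that arrays of a group come from separate mice, so p-values measure the spread between these arrays.

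The muscle genes varied from array to array more than most genes did. The median standard deviation within a group was 0.411 over the members in eye and 0.786 in lung, against 0.224 over all genes in each of them. The 95th percentile of that spread over all genes was exceeded by 18 members in eye and 25 in lung. In brain, taken as a comparison tissue, the members' median was 0.207 against 0.224 over all genes, and 1 member exceeded the percentile. Only 2 of the 34 members had a mean above the median gene in brain, against 29 in eye and 10 in lung. Dim signal thus limits brain as a comparison. Across the arrays of a tissue the highest level of a member was 2.03 to 12.3 times its lowest in eye (median 3.74) and 2.07 to 83.1 times in lung (median 11.1).

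This variation was shared. A principal component of the members' deviations from their group means held 63.5% of their variance in eye and 85.1% in lung, with all 34 weights positive in both. In brain, where only 2 members had a mean above the median gene, the leading component held 26.5%. The 6 groups accounted for 19.4% of the variance of the member mean in eye and 8.75% in lung. Group means differ through array-to-array variation alone too, so part or all of each share can arise without any group change. How much does so was not estimated, and neither share is read as a group change. Each member was also set against the mean of the other members: the share of its within-group variance that went with them had a median of 63.2% in eye (22.3% for Trim63 to 86.0% for Myom1) and 76.0% in lung (11.5% for Pvalb to 96.5% for Casq1). All genes of an array share its RNA sample, so these shares are a description, and no test was made of them. In bulk tissue, fewer muscle fibres and less of these RNAs per fibre cannot be told apart.

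**Figure D1:**
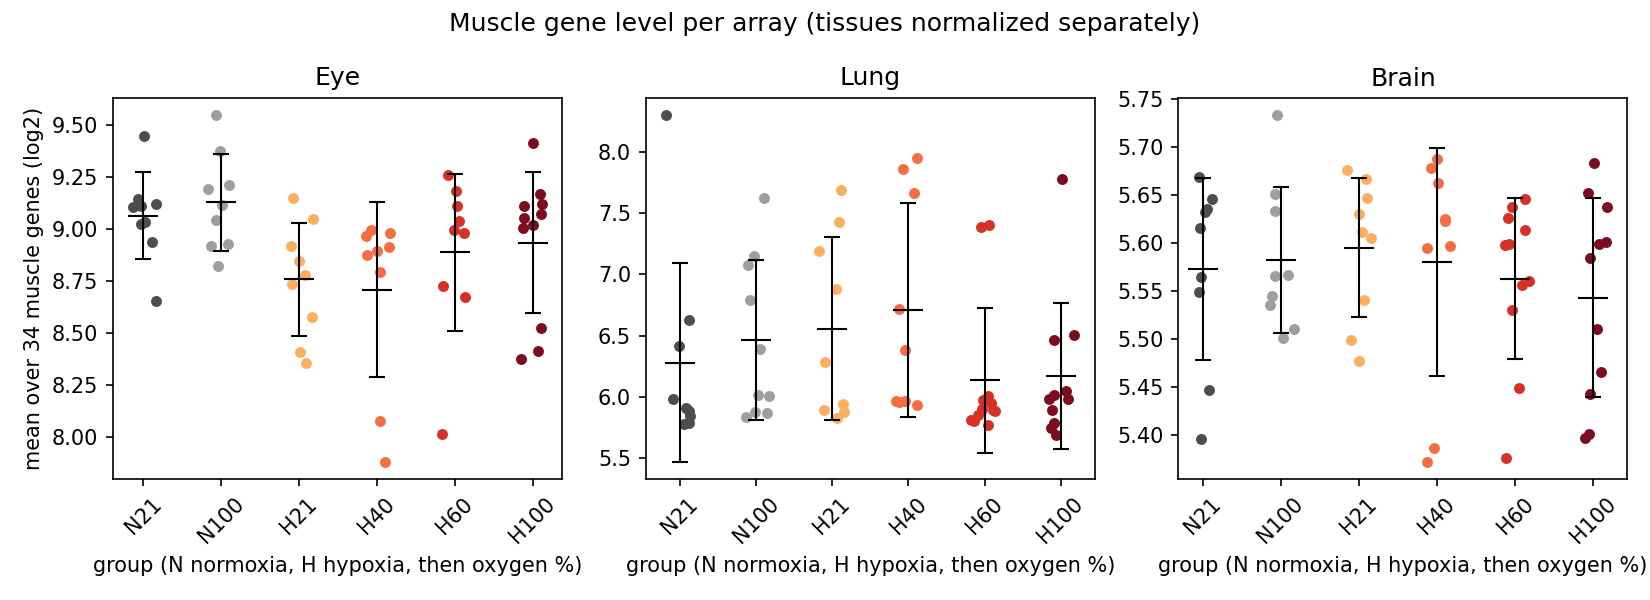
Mean over 34 muscle genes (log2) for each array, by group, in eye, lung and brain; bars show the group mean ± SD over arrays. Eye arrays spread from 7.88 to 9.55 and lung arrays from 5.69 to 8.30, while all brain arrays lie between 5.37 and 5.73. The axes differ because levels were not compared between tissues. The title calls the tissues normalized separately, which is not given in the sources used here.

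**Figure D2:**
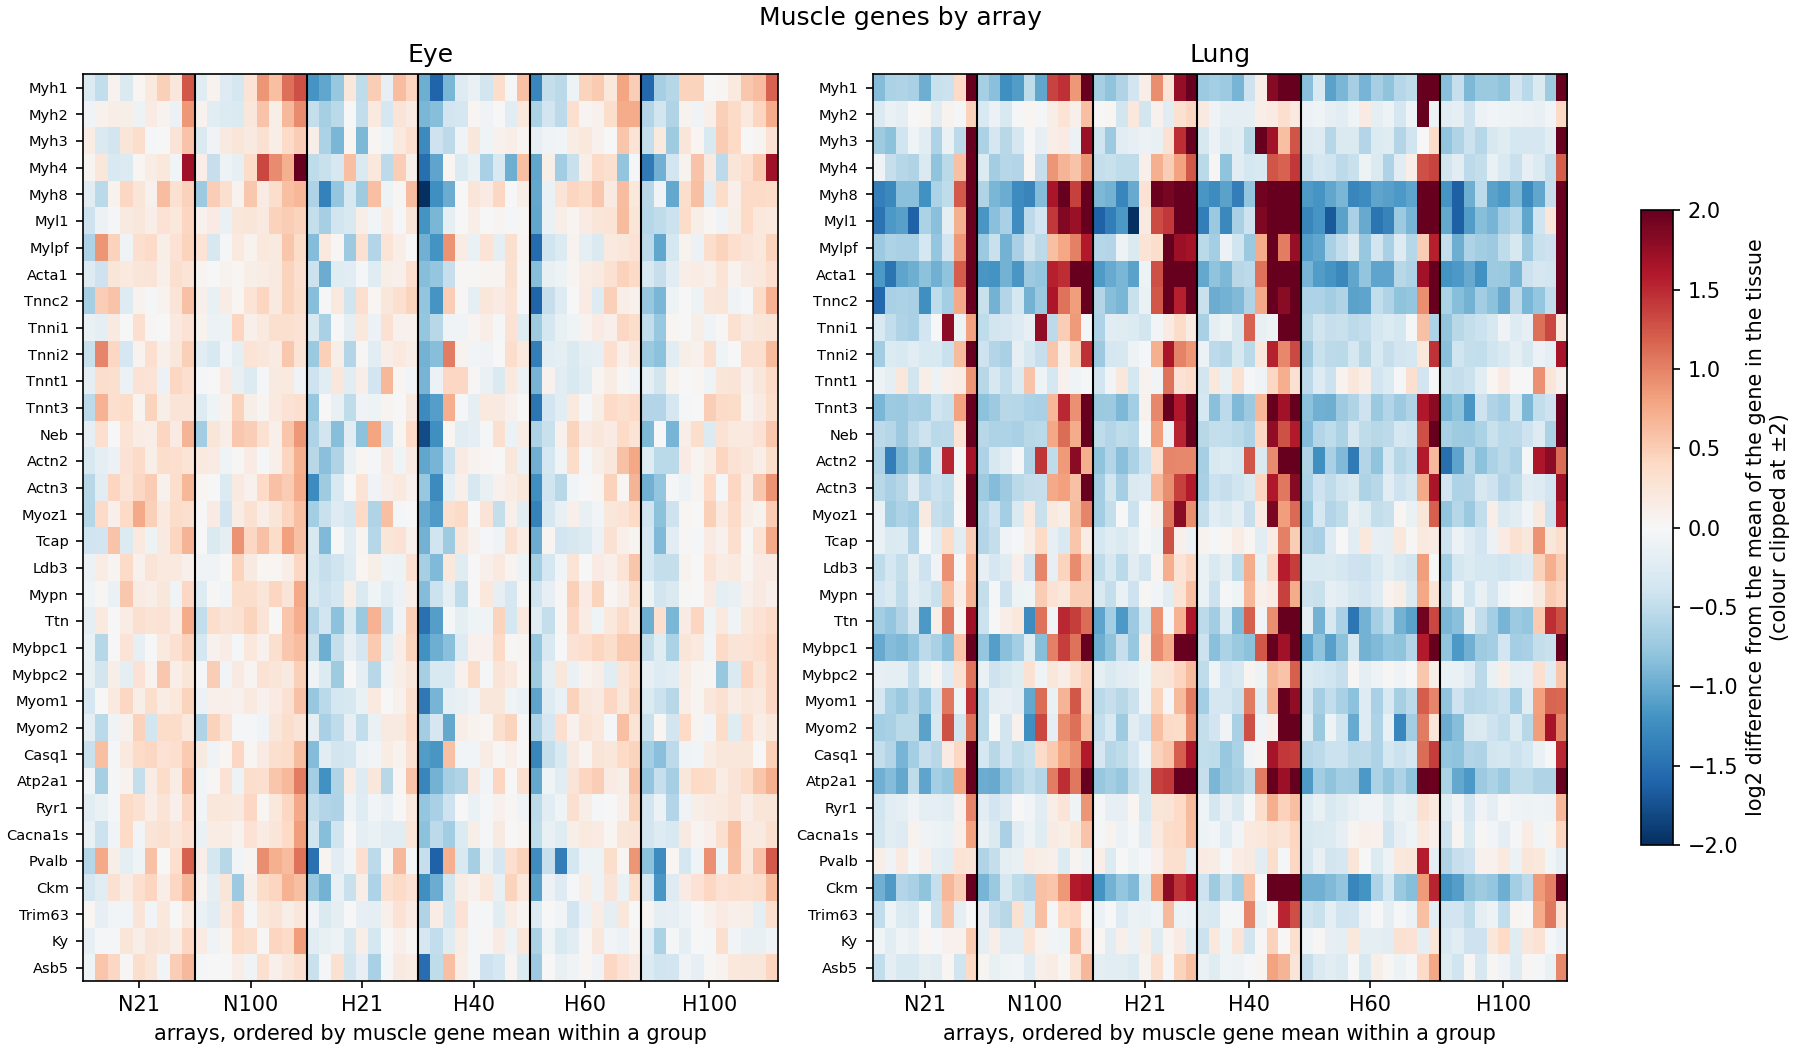
Difference of each muscle gene from its tissue mean (log2, colour clipped at ±2) for every array of eye and lung, with arrays ordered by their muscle gene mean within each group. The lowest and highest arrays keep 1 colour through most genes, and in lung a few red columns stand at the right of each group beside many blue ones.

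Myosin heavy chains are the motors of the thick filament. Myh8 (perinatal) and Myh3 (embryonic) precede the adult fast chains Myh1, Myh2 and Myh4 in development. Myh8 averaged 11.09 ± 0.59 in eye and 6.83 ± 1.70 in lung (SD over 56 and 60 arrays, as for the members below). Myh3 averaged 8.99 ± 0.38 in eye and 5.45 ± 0.82 in lung. Myh1 averaged 9.89 ± 0.68 in eye and 5.17 ± 1.23 in lung. All 3 of these chains had a wider spread in lung than in eye. Myh2 averaged 9.15 ± 0.43 in eye and 5.53 ± 0.34 in lung, and Myh4 averaged 7.45 ± 0.71 in eye and 5.15 ± 0.69 in lung. These genes are similar in sequence, so signal may be shared between their probes and each single value is uncertain. In the eye, Myh8 had a lowest, median and highest level of 10.55, 11.34 and 11.71 in N21 and of 10.36, 11.45 and 11.75 in N100. After hypoxia, Myh8 in eye lay at 9.74, 10.77 and 11.70 in H21, 8.99, 11.09 and 11.50 in H40, 10.07, 11.35 and 11.71 in H60 and 10.08, 11.44 and 11.70 in H100. Every pair of eye groups overlapped, H21 and H40 had the lowest medians, and the lowest array of all was in H40. Averaged over the groups, all hypoxia minus all normoxia was -0.33 ± 0.155 (log2, ± SE) for Myh8, -0.55 ± 0.182 for Myh4 and -0.38 ± 0.181 for Myh1, and no heavy chain passed the test. In the lung, Myh8 had a lowest, median and highest level of 5.47, 6.004 and 10.98 in N21 and of 5.51, 6.10 and 10.14 in N100. After hypoxia, Myh8 in lung lay at 5.53, 7.13 and 10.58 in H21, 5.44, 6.06 and 10.23 in H40, 5.52, 5.76 and 9.54 in H60 and 5.20, 5.79 and 10.10 in H100. H60 and H100 had the lowest medians, the highest array stood in N21, and all groups overlapped.

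Light chains bind the neck of the myosin head. Myl1 averaged 11.80 ± 0.37 in eye and 6.28 ± 1.68 in lung. For the fast regulatory chain, Mylpf averaged 9.46 ± 0.49 in eye and 6.07 ± 0.98 in lung. In the eye, Myl1 had a lowest, median and highest level of 11.38, 11.97 and 12.22 in N21 and of 11.66, 12.02 and 12.29 in N100. After hypoxia, Myl1 in eye lay at 11.12, 11.75 and 12.04 in H21, 10.61, 11.78 and 11.92 in H40, 10.76, 11.96 and 12.42 in H60 and 11.23, 11.92 and 12.19 in H100. Both normoxia groups had higher medians than all hypoxia groups, with overlap in every pair. The hypoxia difference in eye was -0.25 ± 0.0981 for Myl1 and -0.31 ± 0.133 for Mylpf. In the lung, Myl1 had a lowest, median and highest level of 4.66, 5.45 and 10.55 in N21 and of 5.04, 5.83 and 9.15 in N100. After hypoxia, Myl1 in lung lay at 4.18, 6.46 and 9.30 in H21, 4.90, 5.86 and 9.91 in H40, 4.60, 5.25 and 9.40 in H60 and 4.66, 5.44 and 9.16 in H100. The highest Myl1 array in lung stood in N21 and the widest group was H40 by its SD of 2.08. All lung groups overlapped.

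The thin filament is built of actin with the troponins on it and nebulin along it. Acta1 averaged 12.77 ± 0.33 in eye and 8.06 ± 1.53 in lung. Tnnc2 averaged 10.02 ± 0.45 in eye and 6.66 ± 1.28 in lung for the fast calcium-binding troponin C. Tnni2 averaged 9.30 ± 0.45 in eye and 7.03 ± 0.73 in lung for the fast inhibitory troponin and Tnni1 averaged 7.78 ± 0.29 in eye and 6.82 ± 0.74 in lung for its slow form. The slow form had the smaller spread in eye. Tnnt3 averaged 11.21 ± 0.44 in eye and 7.28 ± 1.15 in lung for fast troponin T and Tnnt1 averaged 7.999 ± 0.30 in eye and 6.67 ± 0.36 in lung for slow troponin T. Neb averaged 8.91 ± 0.51 in eye and 5.60 ± 0.96 in lung for nebulin, the ruler of thin filament length. In the eye, Acta1 had a lowest, median and highest level of 12.35, 13.01 and 13.09 in N21 and of 12.78, 12.89 and 13.21 in N100. After hypoxia, Acta1 in eye lay at 11.79, 12.56 and 13.10 in H21, 11.92, 12.79 and 13.07 in H40, 11.92, 12.91 and 13.23 in H60 and 12.32, 12.91 and 13.10 in H100. Acta1 had its lowest array in H21, and no pair of groups was separate. Differences after hypoxia in eye ran from -0.38 ± 0.133 for Neb to -0.13 ± 0.0815 for Tnnt1. In the lung, Acta1 had a lowest, median and highest level of 6.60, 7.10 and 11.81 in N21 and of 6.87, 7.31 and 11.06 in N100. After hypoxia, Acta1 in lung lay at 6.93, 7.97 and 10.90 in H21, 7.04, 7.55 and 11.32 in H40, 6.78, 7.09 and 10.46 in H60 and 6.85, 7.31 and 10.87 in H100. N21 held both the lowest and the highest Acta1 array of the lung. H21 had the highest median, and all groups overlapped.

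Z-disc proteins anchor the thin filaments. Actn2 averaged 9.67 ± 0.39 in eye and 8.30 ± 1.03 in lung, and Actn3 averaged 8.67 ± 0.49 in eye and 6.41 ± 0.85 in lung, which is the alpha-actinin of fast fibres. Myoz1 averaged 8.88 ± 0.45 in eye and 5.74 ± 0.72 in lung for a calcineurin-binding Z-disc protein and Tcap averaged 7.88 ± 0.43 in eye and 6.47 ± 0.37 in lung for the cap of titin. Ldb3 averaged 8.23 ± 0.29 in eye and 7.05 ± 0.52 in lung and Mypn averaged 6.81 ± 0.30 in eye and 5.04 ± 0.40 in lung, both scaffold proteins that bind alpha-actinin. These scaffold proteins had the narrowest spreads of the Z-disc genes in eye. In the eye, Actn2 had a lowest, median and highest level of 9.35, 9.94 and 10.05 in N21 and of 9.59, 9.83 and 10.38 in N100. After hypoxia, Actn2 in eye lay at 8.83, 9.58 and 9.84 in H21, 8.63, 9.68 and 9.89 in H40, 8.71, 9.79 and 10.45 in H60 and 9.13, 9.83 and 10.10 in H100. Again H21 and H40 had the lowest medians, and all groups overlapped. The largest Z-disc difference after hypoxia in eye was -0.35 ± 0.131 for Actn3, and Mypn had -0.27 ± 0.0723 (unadjusted p = 0.000362, adjusted p = 0.176 by limma). In the lung, Actn2 had a lowest, median and highest level of 6.91, 7.68 and 9.96 in N21 and of 7.67, 8.17 and 10.11 in N100. After hypoxia, Actn2 in lung lay at 7.47, 7.87 and 9.27 in H21, 7.64, 8.02 and 11.31 in H40, 6.89, 7.70 and 9.89 in H60 and 6.79, 7.72 and 10.08 in H100. H40 held the highest Actn2 array, N21 had the lowest median, and all groups overlapped.

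Titin spans the sarcomere from Z-disc to M-band, myosin-binding protein C sits on the thick filament, and myomesins link thick filaments at the M-band. Ttn averaged 9.66 ± 0.47 in eye and 7.29 ± 0.996 in lung. Mybpc1 averaged 10.03 ± 0.43 in eye and 6.07 ± 1.28 in lung for the slow and Mybpc2 averaged 6.07 ± 0.31 in eye and 5.29 ± 0.37 in lung for the fast binding protein C. Myom1 averaged 8.72 ± 0.39 in eye and 7.51 ± 0.78 in lung and Myom2 averaged 6.94 ± 0.36 in eye and 7.12 ± 0.85 in lung. Myom1 was the member that went most closely with the others in eye. In the eye, Mybpc1 had a lowest, median and highest level of 9.45, 10.04 and 10.49 in N21 and of 9.68, 10.18 and 10.65 in N100. After hypoxia, Mybpc1 in eye lay at 9.06, 9.83 and 10.55 in H21, 8.81, 10.05 and 10.42 in H40, 9.26, 10.37 and 10.55 in H60 and 9.40, 10.27 and 10.46 in H100. H60 had the highest Mybpc1 median, and the groups overlapped. Hypoxia differences in eye were -0.36 ± 0.122 for Ttn and -0.10 ± 0.1 for Myom2, the smallest of all members. In the lung, Myom1 had a lowest, median and highest level of 6.75, 7.13 and 8.97 in N21 and of 6.49, 7.36 and 8.74 in N100. After hypoxia, Myom1 in lung lay at 6.95, 7.43 and 8.53 in H21, 6.83, 7.30 and 9.90 in H40, 6.68, 7.002 and 8.71 in H60 and 6.72, 7.07 and 8.68 in H100. In lung the highest Myom1 array was in H40 and the lowest in N100, and all groups overlapped.

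Calcium handling genes couple excitation to contraction. Atp2a1 averaged 11.10 ± 0.52 in eye and 6.73 ± 1.25 in lung for the fast-fibre calcium pump. Ryr1 averaged 7.63 ± 0.31 in eye and 5.73 ± 0.32 in lung for the calcium release channel and Cacna1s averaged 7.64 ± 0.33 in eye and 5.62 ± 0.27 in lung for the voltage sensor that opens it. Casq1 averaged 9.87 ± 0.44 in eye and 6.73 ± 0.79 in lung for the calcium store protein and Pvalb averaged 8.97 ± 0.66 in eye and 5.0 ± 0.32 in lung for parvalbumin, a calcium buffer of fast fibres. Pvalb had the widest spread of these in eye. In the eye, Atp2a1 had a lowest, median and highest level of 10.43, 11.17 and 11.72 in N21 and of 10.999, 11.44 and 12.12 in N100. After hypoxia, Atp2a1 in eye lay at 9.89, 10.84 and 11.68 in H21, 9.80, 11.05 and 11.53 in H40, 10.09, 11.26 and 11.68 in H60 and 10.31, 11.36 and 11.81 in H100. N100 had the highest Atp2a1 median and array, and all groups overlapped. In the eye, Ryr1 had a lowest, median and highest level of 7.42, 7.76 and 8.05 in N21 and of 7.57, 7.85 and 8.39 in N100. After hypoxia, Ryr1 in eye lay at 7.01, 7.50 and 7.83 in H21, 6.86, 7.57 and 7.71 in H40, 7.11, 7.64 and 8.09 in H60 and 7.05, 7.77 and 7.89 in H100. Ryr1 medians were lowest in H21 and H40. The hypoxia difference of Ryr1 in eye was -0.30 ± 0.0768 (unadjusted p = 0.00021, adjusted p = 0.132 by limma), with 33 of 38 hypoxia arrays below the normoxia mean. With array quality weights Ryr1 passed the test (-0.30 ± 0.0712, adjusted p = 0.0403). That weighted fit called 53 of 19937 genes in all, against 17 without weights. In the lung, Atp2a1 had a lowest, median and highest level of 5.68, 5.98 and 9.89 in N21 and of 5.72, 6.19 and 9.41 in N100. After hypoxia, Atp2a1 in lung lay at 5.97, 6.41 and 9.45 in H21, 5.82, 6.28 and 9.17 in H40, 5.59, 6.04 and 8.79 in H60 and 5.59, 6.10 and 9.10 in H100. N21 had both the lowest median and the highest array, and the groups overlapped.

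Ckm encodes muscle creatine kinase, Trim63 (MuRF1) a ubiquitin ligase that tags contractile proteins for breakdown, Ky a Z-disc-associated protein needed for muscle growth, and Asb5 a subunit of ubiquitin ligases found in muscle. Ckm averaged 10.58 ± 0.48 in eye and 8.40 ± 1.15 in lung. Trim63 averaged 6.41 ± 0.20 in eye and 6.37 ± 0.45 in lung, Ky averaged 6.16 ± 0.27 in eye and 5.75 ± 0.24 in lung, and Asb5 averaged 7.37 ± 0.37 in eye and 5.31 ± 0.33 in lung. Trim63 had the narrowest spread of all members in eye and Ky in lung. In the eye, Ckm had a lowest, median and highest level of 10.23, 10.88 and 11.23 in N21 and of 9.85, 10.82 and 11.28 in N100. After hypoxia, Ckm in eye lay at 9.62, 10.42 and 10.95 in H21, 9.34, 10.66 and 11.02 in H40, 9.50, 10.47 and 10.93 in H60 and 9.41, 10.87 and 11.21 in H100. Ckm medians were lowest in H21, with overlap of all groups. In the eye, Asb5 had a lowest, median and highest level of 7.28, 7.71 and 8.02 in N21 and of 7.30, 7.46 and 7.69 in N100. After hypoxia, Asb5 in eye lay at 6.71, 7.33 and 7.67 in H21, 5.84, 7.10 and 7.96 in H40, 6.63, 7.36 and 7.78 in H60 and 6.97, 7.39 and 7.80 in H100. For Asb5, all hypoxia medians lay below both normoxia medians, with overlap. In the lung, Ckm had a lowest, median and highest level of 7.27, 7.82 and 11.03 in N21 and of 7.47, 8.52 and 10.05 in N100. After hypoxia, Ckm in lung lay at 7.20, 8.14 and 10.20 in H21, 7.69, 8.42 and 11.29 in H40, 7.09, 7.58 and 9.92 in H60 and 7.21, 7.69 and 10.79 in H100. The highest Ckm array in lung was in H40, and the groups overlapped. In the lung, Trim63 had a lowest, median and highest level of 5.88, 6.17 and 6.91 in N21 and of 5.81, 6.37 and 6.97 in N100. After hypoxia, Trim63 in lung lay at 6.11, 6.26 and 7.01 in H21, 6.06, 6.34 and 7.90 in H40, 5.92, 6.19 and 6.98 in H60 and 5.87, 6.27 and 7.43 in H100. Trim63 in lung likewise reached its highest level in H40, and all groups overlapped.

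Within the eye a further component, with 12.7% of the members' within-group variance, set Pvalb, Mylpf, Tnni2 and Tnnc2 against Myh8, Myh3, Mybpc1, Myom2 and Ttn. The latter holds both developmental heavy chains. The array scores on this component had medians of 0.31, -1.12 and -0.38 in the 3 submission runs (37, 7 and 12 arrays), and the part of the run in it was not tested.

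**Figure D3:**
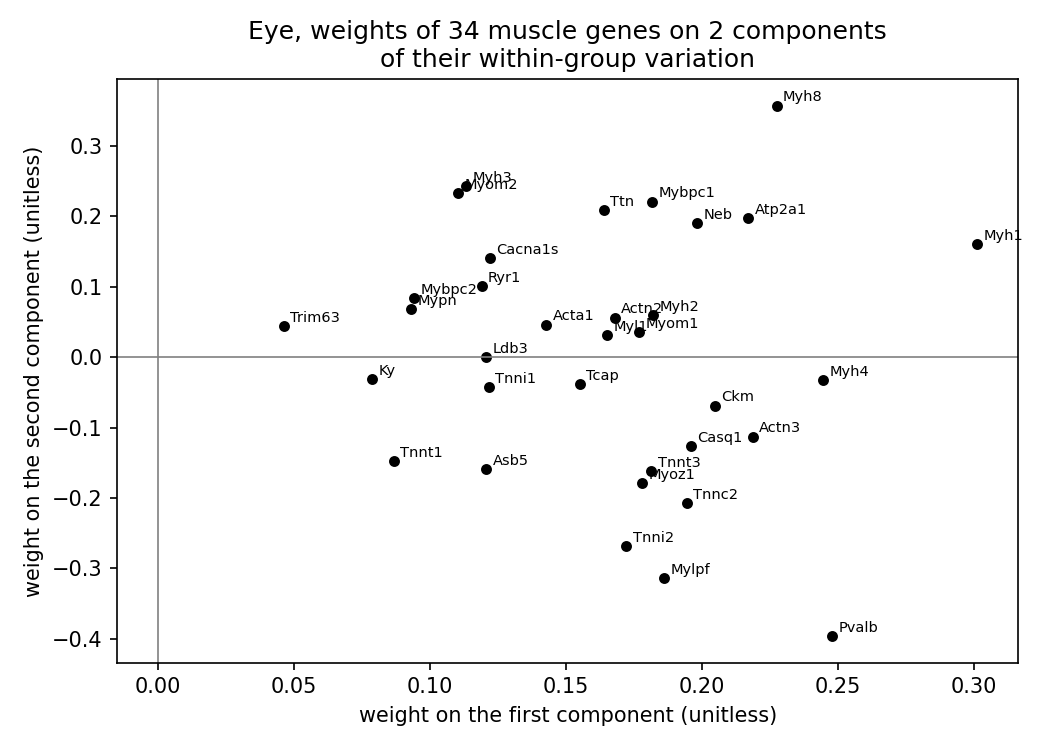
Weights of the 34 muscle genes on the leading component (x axis) and the further component (y axis) of their within-group variation in eye, both without unit. All weights on the x axis are positive, and the y axis runs from Pvalb at the bottom to Myh8 at the top.

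The comparison of hypoxia with normoxia asks whether the muscle genes of the eye changed after the low-oxygen exposure. In the eye all 34 differences were negative, averaged over the 4 hypoxia and the 2 normoxia groups. The median difference was -0.27 (log2; from -0.55 for Myh4 to -0.10 for Myom2) against a median of 0.0027 over all genes. Member means had a lowest, median and highest of 7.88, 8.94 and 9.41 in 38 hypoxia arrays and of 8.66, 9.11 and 9.55 in 18 normoxia arrays. The ranges overlapped, and 30 of 38 hypoxia arrays lay below the normoxia mean. Because the members vary together across arrays, their signs are not independent of each other. An unadjusted p under 0.05 was reached by 28 members and by 1001 genes in all, and 1 member passed the adjusted threshold of 0.05 (limma, Benjamini-Hochberg over 19937 genes), where 0.0853% of genes were called in either direction, 0.0201% as lower and 0.0652% as higher.

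The member called was Ky. In the eye, Ky had a lowest, median and highest level of 6.0, 6.30 and 6.57 in N21 and of 6.09, 6.51 and 6.998 in N100. After hypoxia, Ky in eye lay at 5.80, 6.05 and 6.29 in H21, 5.66, 6.14 and 6.39 in H40, 5.53, 6.07 and 6.38 in H60 and 5.52, 6.08 and 6.48 in H100. Both normoxia groups had higher Ky medians than all 4 hypoxia groups, and every pair of groups overlapped. The difference was -0.31 ± 0.0647 (adjusted p = 0.0223), and 35 of 38 hypoxia arrays lay below the normoxia mean. Ky lost the call without N100 replicate 4 (adjusted p = 0.0733) or without N21 replicate 1 (adjusted p = 0.0598), and it was not tested when the dimmest 40% of genes were left out because it is one of them. Within the 3 submission runs the plain Ky difference was -0.36, -0.14 and -0.22, over 24, 5 and 9 hypoxia and 13, 2 and 3 normoxia arrays. The difference was negative in each run.

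For the members together, the within-run medians were -0.27, -0.35 and -0.16, with 34, 34 and 29 of 34 lower. Single group comparisons called no member in eye. Against N21 the median member difference was -0.32 in H21 (10 members with an unadjusted p under 0.05), -0.34 in H40 (16), -0.12 in H60 (3) and -0.12 in H100 (1). Of all 19937 genes, 449 were at that unadjusted level in H21, 421 in H40, 1076 in H60 and 1058 in H100. Among all genes 0.00502% were called in H21 minus N21 and 0% in the other 3. N100 minus N21 had a median of 0.066 (0 members with an unadjusted p under 0.05) and H100 minus N100 one of -0.18 (3 members), each with 0% of genes called. At that unadjusted level stood 777 of 19937 genes in N100 minus N21 and 1734 in H100 minus N100. The 3 of 34 members are thus near the share of all genes. These comparisons share control arrays, so their values are not independent of each other. With array quality weights Ky was also called in H100 minus N100 (-0.45 ± 0.0922, adjusted p = 0.0101). That weighted fit called 432 genes in all for H100 minus N100, so the call was not particular to Ky.

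A list of 31 measured genes of muscle metabolism and structure that holds no member, among them Mb, Eno3 and Cox6a2, had a median difference of -0.23 after hypoxia, with 0 of 31 called. Its mean went with 92.7% of the within-group variance of the member mean over 56 arrays, and with 90.1% without the 2 farthest arrays. When that list mean entered the fit as a covariate, the median member difference was 0.018, with 20 members positive and 14 negative. Of the members 0 were called, where 0.206% of genes were. An unadjusted p under 0.05 was reached by 3 members and by 1197 of 19937 genes. The Ky difference was then -0.17 ± 0.0527 (adjusted p = 0.317), Ryr1 -0.12 ± 0.0556 and Mypn -0.12 ± 0.0587 (adjusted p = 0.788 and 0.827). The covariate list itself had a negative median difference, so this fit asks only whether a member departs from other muscle genes of the same array.

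The peripheral nerve and Schwann cell list (5 of 7 genes measured) went with 74.2% of the within-group variance of the member mean in eye. Its mean had a lowest, median and highest of 7.78, 8.40 and 8.68 in N21, 7.57, 8.11 and 8.80 in N100, 6.95, 7.85 and 8.49 in H21, 7.23, 8.22 and 8.41 in H40, 6.99, 8.30 and 8.49 in H60 and 7.17, 8.18 and 8.53 in H100. Its median difference after hypoxia was -0.22, with 0 of 5 called. The part of tissue attached to the globe in the member differences was not tested. Lists of cardiac muscle (15 genes), neuromuscular junction (8), myogenic progenitors (10) and white fat (7) went with 70.1%, 62.3%, 58.4% and 48.6%, each with a positive sign. The cardiac list holds genes that developing or slow skeletal muscle expresses too, such as Actc1 and Myh7. Of its 15 genes, 6 correlated above 0.5 with the member mean. Single genes ran apart, for example 67.0% for Actc1, 53.3% for Myh7 and 1.07% for the atrial peptide Nppa. The tissue behind the cardiac share and the part of these lists in the member differences were not tested. Lens, photoreceptor and neuron lists went with 3.34%, 0.296% and 2.49%, each with a negative sign.

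Extraocular muscle has heavy chains of its own. Among the 5 measured genes of that list, Myh13, the superfast chain of eye muscles, went with 51.2% of the within-group variance of the member mean and had a lowest, median and highest of 5.97, 7.63 and 9.63 over the eye arrays. Myh15 went with 1.18%, and 0 of the 5 were called. Of the 160 measured genes of 16 marker lists, 2 were called in eye after hypoxia (1.25%, against 0.0853% of all genes). Both stand in the list of 13 atrophy and fasting genes and rose: Mt2 by 0.73 ± 0.132 (adjusted p = 0.00631) and Mt1 by 0.54 ± 0.107 (adjusted p = 0.0127). Both are metallothioneins, which bind metals in most cell types. The lists were chosen with earlier results of these data known, so the share of their genes called is not read as an enrichment. With the covariate Pdk4, the kinase that restrains pyruvate oxidation, was also called (0.56 ± 0.121, adjusted p = 0.0195), and Mt1 was called in H100 minus N100 (0.75 ± 0.162, adjusted p = 0.047), where 0.0451% of genes were called, 0.0251% as higher. Trim63, the member of that pathway, had -0.12 ± 0.0576 and did not pass.

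**Figure D4:**
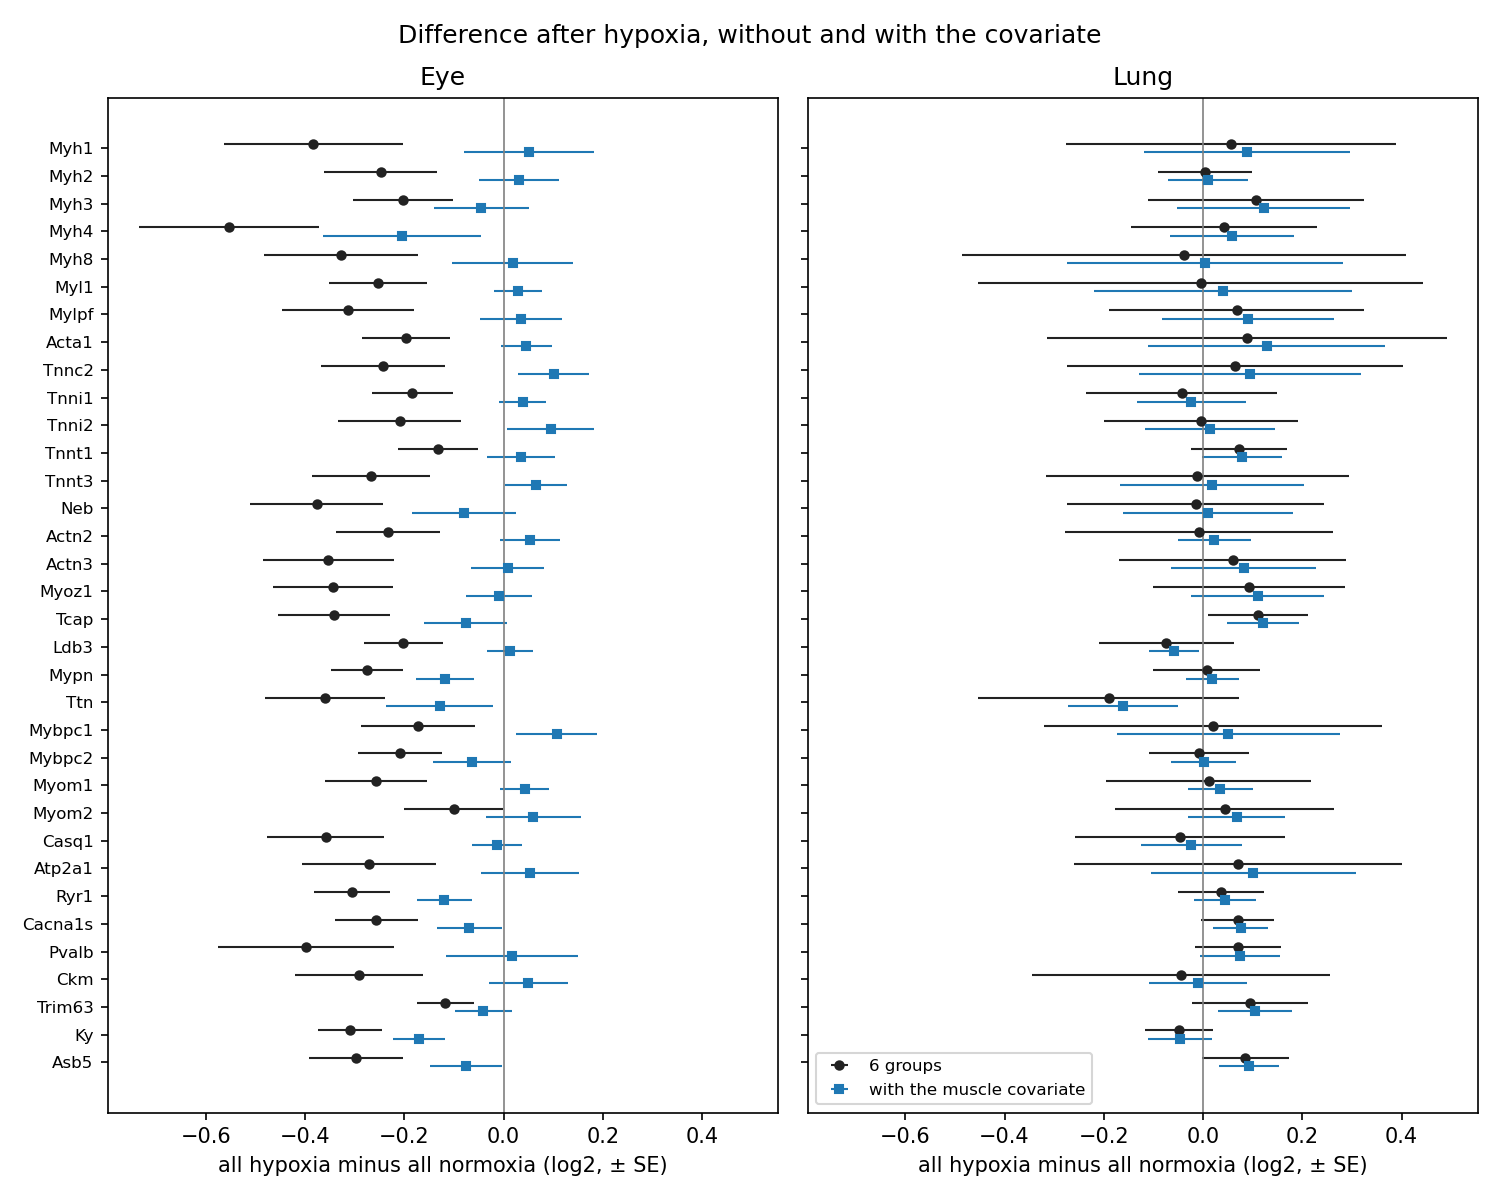
All hypoxia minus all normoxia for each muscle gene (log2, ± SE) in eye and lung, from the fit of 6 groups (black circles) and with the muscle covariate (blue squares). In eye all 34 circles lie below 0 and the squares lie on both sides of it, and in lung the circles lie on both sides with wide errors.

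Lung arrays fell into sets by markers of other tissues. Of the 34 members, 10 had a mean above the median gene of the lung, against 29 in eye. The stratified epithelium list (10 genes, among them the oesophageal keratins Krt4 and Krt13) split the lung arrays at its widest gap. In 10 arrays Krt4 lay between 8.74 and 11.65, and in the other 50 between 4.45 and 5.24. The 10 arrays came from every group: 1 of N21, 2 of N100, 2 of H21, 3 of H40, 1 of H60 and 1 of H100. This split was chosen after seeing the data, and the epithelium is a marker, not a group of the study.

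Most members had higher levels in those 10 arrays, which is described without a test. The member mean ran from 6.71 to 8.30 there, while in the other 50 it ran from 5.69 to 7.95, with a median of 5.95 against 7.64 in the 10. The sets overlapped. The mean of the 10 minus the mean of the 50 had a median of 1.33 over the members (log2), against -0.026 over all genes. It was 3.59 for Myh8, 3.52 for Myl1, 3.10 for Acta1 and 2.77 for Mybpc1, and 20 members exceeded 1. For Asb5, 8 of the 10 arrays lay above all of the other 50, and for embryonic Myh3 it was 7, the highest counts of the members. That count was 2 for Myh8, Myl1 and Acta1, and 0 for Myh2, Tnnt1, Tcap, Mybpc2, Pvalb and Ky. Pvalb (-0.03), Ky (0.13), Trim63 (0.21) and Tcap (0.21) had the smallest differences. Levels of the heart list overlapped between the 10 arrays (7.17 to 10.44) and the 50 (7.04 to 9.81). The part of oesophageal tissue in these values was not tested.

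Another set of members went with heart genes. The cardiac list holds 15 genes, among them the atrial peptide Nppa and heart troponin I (Tnni3), and Nppa ranged from 5.54 to 13.21 over the lung arrays. In the 50 arrays without the epithelium genes, the cardiac list mean went with 62.8% of the within-group variance of the member mean, and with 56.7% without the 2 farthest arrays. It went with 95.5% for Actn2, 91.2% for Myom1, 90.7% for Ldb3, 88.3% for Tnni1 and 85.3% for Myom2. Ttn (80%), Ckm (76.3%), Trim63 (76.3%), Mypn (66%) and Casq1 (60.2%) also exceeded 50%. Most of these are genes that the heart too is known to express, and newborn heart expresses Tnni1. The other 24 members ran from 7.86% for Ky to 44.2% for Myl1. Over all 60 arrays the cardiac list went with 27.3% of the variance of the member mean. These shares are a description, and the part of heart tissue in them was not tested.

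**Figure D5:**
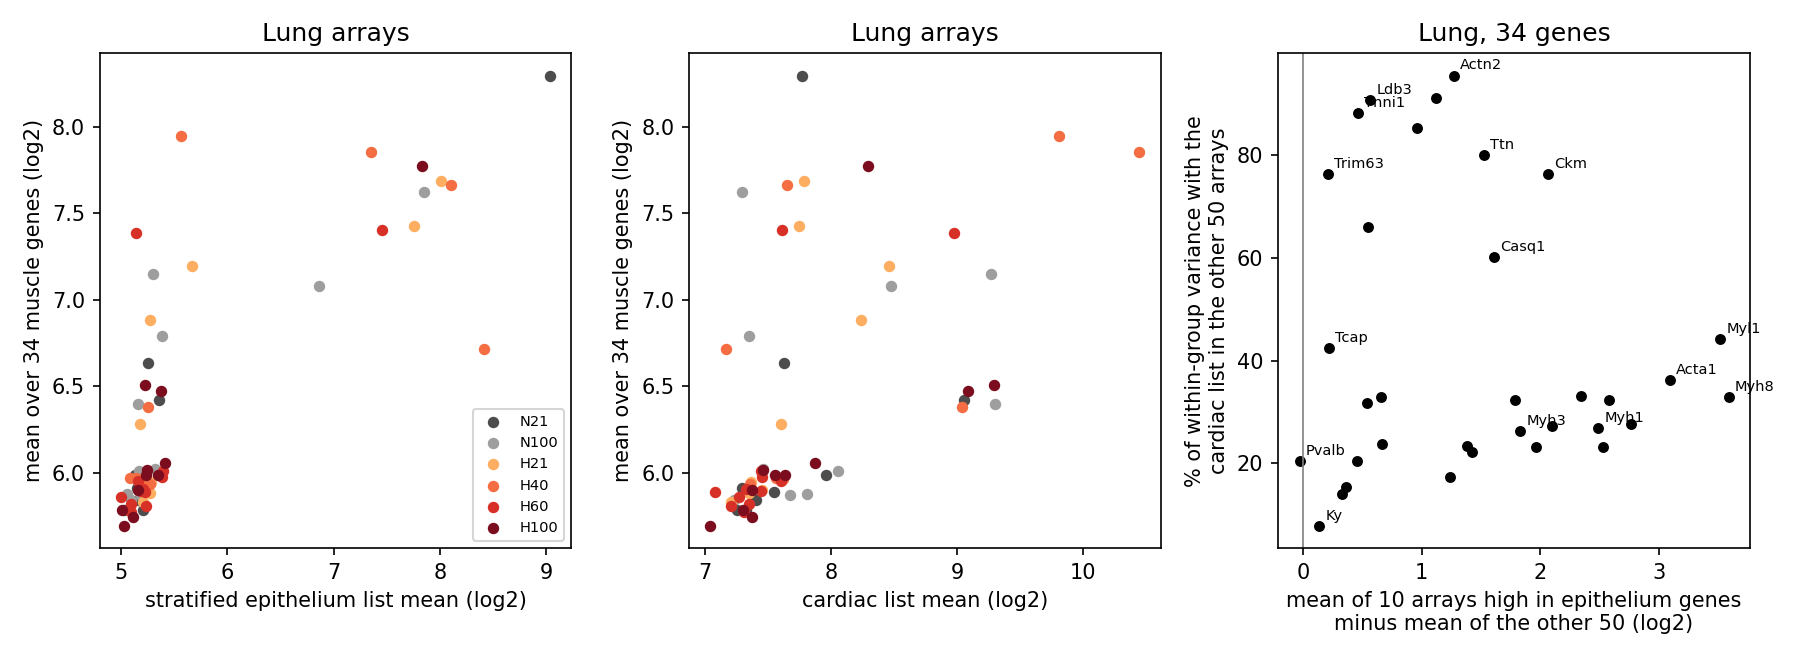
Lung arrays by the mean of the stratified epithelium list (left) or the cardiac list (middle) and by their muscle gene mean (log2), coloured by group; right, each muscle gene by its difference between the 10 arrays high in epithelium genes and the other 50 (log2) and by the share of its within-group variance that went with the cardiac list in those 50. Myh8, Myl1 and Acta1 lie far to the right, and Actn2, Ldb3 and Tnni1 lie at the top.

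A further component of the lung members, with 7.96% of their within-group variance, had its highest weights on Actn2, Tnni1, Myom2, Ttn and Myom1 and its lowest on Mybpc1 and Myh3. Fat lists also moved with the members over the 60 lung arrays. Brown fat genes (8, with Ucp1 from 4.55 to 10.97) went with 59.5% of the within-group variance of the member mean and white fat genes (7) with 56.5%, while type 2 alveolar genes (8) went with 40.5% and a negative sign. The arrays fall into sets, so these pooled shares describe the sets as much as single arrays.

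Thymus and lymphocyte genes set 3 further lung arrays apart, none of them among the 10. All 3 were of hypoxia groups, as were 41 of the 60 lung arrays. The list mean (7 of 9 genes measured) was 7.97 in H21 replicate 1, 7.59 in H21 replicate 6 and 8.08 in H40 replicate 3, against at most 6.48 in the other 57. Their member means were 7.19, 6.88 and 7.95 and their cardiac list means 8.46, 8.24 and 9.81, so H40 replicate 3 holds the highest member mean and cardiac mean of the 50 arrays without the epithelium genes. This set too was chosen after seeing the data, and the part of thymus tissue in these values was not tested.

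Hypoxia against normoxia called none of the 34 members in lung. The median difference was 0.028 (log2; -0.19 for Ttn to 0.11 for Tcap), with 21 positive and 13 negative, against 0.0091 over all genes. No member had an unadjusted p under 0.05, where 1794 of all genes did and 1.66% of genes were called. Member means had a lowest, median and highest of 5.69, 5.97 and 7.95 in 41 hypoxia arrays and 5.78, 6.01 and 8.30 in 19 normoxia arrays, and the ranges overlapped. Standard errors were wide, at 0.448 for Myh8 and 0.403 for Acta1, so modest changes of these genes were not detectable here. The sign of this median changed with the arrays left out. Without the 3 arrays high in thymus genes it was -0.05 (10 positive, 24 negative), without the 10 high in epithelium genes 0.047 (23 positive, 11 negative) and without both sets -0.11 (7 positive, 27 negative). Leaving out N21 replicate 6 alone gave 0.13 (31 positive, 3 negative) and leaving out H100 replicate 2 alone gave -0.01 (14 positive, 20 negative). In each of these fits 0 members were called. With the muscle covariate it was 0.048, with 0 called and 1.86% of genes called.

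In the lung, Ky had a lowest, median and highest level of 5.52, 5.72 and 6.26 in N21 and of 5.52, 5.76 and 6.37 in N100. After hypoxia, Ky in lung lay at 5.51, 5.78 and 5.91 in H21, 5.32, 5.77 and 6.20 in H40, 5.53, 5.62 and 6.05 in H60 and 5.33, 5.63 and 6.15 in H100. Ky had a mean below the median gene of the lung, its groups overlapped, and its difference after hypoxia was -0.05 ± 0.0679. Single group comparisons in lung had medians of either sign, and no member was called. In H40 all 34 members were above N21, with a median of 0.39 and 2 at an unadjusted p under 0.05, where 932 of 19937 genes were. H21 had a median of 0.24 (29 members positive), N100 of 0.17 (30 positive), H60 of -0.14 (31 negative) and H100 of -0.11 (27 negative), with 0 members at an unadjusted p under 0.05 in each. H100 minus N100 had a median of -0.24 with 30 negative and 0 at that level. Of all genes, 0.0502% were called in H21, 0.00502% in H40, 0.0201% in H100 and 0.105% in H100 minus N100, and 0% in H60 and N100. Lung H40 held 3 of the 10 arrays high in epithelium genes. H40 and H21 held the 3 arrays high in thymus genes. Without these the median was 0.26 in H40 (32 positive) and 0.11 in H21 (25 positive), and without the epithelium arrays as well it was 0.0013 in H40 (17 positive) and -0.04 in H21 (15 positive), with 0 called. With the muscle covariate the medians were -0.02 in H40 (16 positive, 18 negative), 0.14 in H21 (27 positive), 0.034 in H60 (20 positive), -0.08 in H100 (27 negative), -0.03 in N100 (19 negative) and -0.02 in H100 minus N100 (19 negative), with 0 called in each. The signs in H40, H60 and N100 were thus not those without it. Within the 3 submission runs the median member difference between hypoxia and normoxia was 0.14, -0.82 and -0.07, over 25, 5 and 11 hypoxia and 13, 2 and 4 normoxia arrays, so its direction differed between runs.

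Of 160 measured lung genes of the 16 marker lists, 3 were called after hypoxia (1.88%), a share near the 1.66% of all genes. Tagln, a smooth muscle actin-binding protein, rose by 0.22 ± 0.0572 (adjusted p = 0.0209), 1 of 10 in its list. Stmn2, a neuronal tubulin-binding protein, rose by 0.30 ± 0.0691 (adjusted p = 0.00717), 1 of 7. The non-muscle heavy chain Myh14 rose by 0.16 ± 0.0422 (adjusted p = 0.0271), 1 of 5 in the list of extraocular and slow tonic chains. None of the 15 cardiac genes, 10 myogenic progenitor genes or 8 junction genes was called in lung or in eye.

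The difference between the tissues was tested in 1 fit over both, a test added after seeing the data. Eye minus lung of the hypoxia difference had a median of -0.28 over the members and -0.0046 over all genes. No member was called (smallest adjusted p = 0.32), 8 of 34 had an unadjusted p under 0.05, and 0.241% of genes were called (48, with 1099 at an unadjusted p under 0.05). The test did not show that the eye and lung differences of the members differ.

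Outside the members, the genes whose within-group deviations followed the member mean most closely included many known muscle genes in both tissues. In eye over 56 arrays they were Cox6a2 (r = 0.92), Myot (0.92), Cd36 (0.90), Nrap (0.90), Casq2 (0.90), Eno3 (0.89), Ckmt2 (0.88), Klhl41 (0.88), Ankrd23 (0.88) and Mettl11b (0.88). Cox6a2 is a muscle subunit of cytochrome c oxidase, Myot a Z-disc protein and Cd36 a fatty acid transporter also found in vessels. In lung over 60 arrays they were Klhl41 (0.95), Myot (0.93), Atp1b4 (0.93), Ampd1 (0.93), Itgb1bp2 (0.92), Eno3 (0.91), Fbp2 (0.91), AW551984 (0.91), Thbs4 (0.90) and Myf6 (0.90). Klhl41, Myot and Eno3 stood in both lists. These correlations share the same pieces of tissue and are a description, with no test.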

How the data were processed

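Eye and lung arrays of a series of 177 were used, with brain for the spread; biotinylated cRNA was prepared by the Affymetrix protocol, per the labels. The deposited log2 expression values were made by the authors with RMA, per the submitters' processing notes, version not given in the sources used here; such values can understate differences of dim probes. The deposited table held 34760 probe sets, of which the annotation gave 21640 a single gene, 1321 several and 11799 none. For each gene the probe set with the highest mean in a tissue was kept, giving 19937 genes. Samples were grouped by their labels, and 0 columns were left unused.

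For each tissue 1 model of 6 groups was fitted with limma 3.58.1 in R 4.3.3 (lmFit, eBayes, two-sided, Benjamini-Hochberg over all genes, called at adjusted p under 0.05), without the 3 arrays that carry another tissue's profile (1 per tissue). Group differences, all hypoxia minus all normoxia, and the same with a muscle covariate were taken. Variance shares come from deviations from group means (numpy 2.4.6, pandas 2.3.3). The fits were also run on simulated data with independent noise for each gene and the covariate of the real arrays. The shared variation of the members was not part of these data, so the runs do not test the fits under it. The alternatives were array quality weights, moderation with trend, a filter on the dimmest 40% of genes, a further quantile normalization, every probe set, the groups compared alone, replicate number or submission run as a block, covariates, and arrays added or left out.

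The members, lists and tests were chosen with earlier results of these data known. Named were all members, the brightest of each role with group values, called members and list genes, and the 10 genes most like the member mean in each tissue. Myh1, Myh2, Myh3, Myh4 and Myh8 could share signal. The number of arrays limits the precision. Replicate numbers were not taken as pairs, since nothing in the labels ties them to a litter or day. Same-numbered arrays' deviations correlated at 0.078 on average in eye and 0.157 in lung, against -0.0063 and -0.014 for other numbers. Whether a number links arrays was not tested. RefSeq windows are of GRCm38.p6.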

Additional observations from a re-analysis of the deposited data

Results flagged for a closer look

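Dixon's criterion was applied to 90 sets, each of 1 gene or the member mean in 1 group of at most 10 arrays. Single arrays stood far from the others in 16 of these sets, and chance gives about 5% of sets. Eye H100, lung H60 and lung H100, with 11, 12 and 11 arrays, were not tested. Lung H100 replicate 2, with a member mean of 7.78 and the nearest array at 6.50, was thus not checked. In eye, H60 replicate 1 was lowest in its group: its member mean was 8.02 with the nearest array at 8.68. Its Myh8 was 10.07, its Myl1 10.76, its Acta1 11.92, its Atp2a1 10.09, its Ckm 9.50 and its Asb5 6.63. Myh8 was also low in N100 replicate 9, at 10.36 with the nearest array at 11.16. In lung, N21 replicate 6 was highest in its group, with a member mean of 8.30 and the nearest array at 6.63. Its Myh8 was 10.98, its Myl1 10.55, its Atp2a1 9.89, its Ckm 11.03 and its Ky 6.26. Trim63 in lung was 6.91 in N21 replicate 4 (nearest 6.38) and 7.01 in H21 replicate 1 (nearest 6.38). These sets share arrays between genes, so the values are not independent.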

How the results depend on the processing

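In the eye the count of members called after hypoxia was 1 (Ky), and it was 0 with the muscle covariate, 0 with muscle and cardiac covariates (Ky -0.17, adjusted p = 0.304 by limma), 0 with the muscle covariate and submission run as a block (adjusted p = 0.214), 0 without the dimmest 40% of genes, where Ky was not tested, and 2 (Ky and Ryr1) with array quality weights. Leaving out single arrays gave 0 to 1, with 0 without N100 replicate 4 or N21 replicate 1. Ky was called under 8 of 11 alternatives and in 54 of 56 fits without an array (adjusted p from 0.00476 to 0.317 over all). Array quality weights gave 1 member (Ky) in H100 minus N100, among 432 genes called in all, and 0 members without weights. The median member difference in eye ran from -0.34 to 0.020, above 0 in all 3 fits with a muscle covariate. In lung 0 members were called under each of 15 alternatives and without any array. The median of 0.028 ran from -0.11 to 0.048 over the alternatives and from -0.01 to 0.13 without single arrays. The alternatives with muscle and cardiac covariates, with the muscle covariate and run together, and without the epithelium or thymus arrays were chosen after seeing the data. Over all comparisons 154 of 163 alternatives gave 0 members. The only-groups-compared fit was not run for all hypoxia minus all normoxia, which uses every group.

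Counts over all genes moved more. Eye, 17 genes: 53 with array quality weights, 41 with the muscle covariate, 47 with muscle and cardiac covariates, 52 with the muscle covariate and run, 32 with run as a block and 8 with the array of another profile. Lung, 331 genes: 834 with weights, 504 with run as a block, 569 with the covariate and run, 95 with the array of another profile, 130 without the arrays high in epithelium genes and 177 without those and the thymus arrays. Without single arrays the counts ran from 12 to 26 and from 262 to 418. For single comparisons the count and its range over alternatives were, in eye, 1 (0 to 1) for H21 and 0 (0 to 432, the highest with weights) for H100 minus N100, and in lung 10 (0 to 141) for H21, 1 (0 to 5) for H40, 0 (0 to 8) for H60, 4 (0 to 9) for H100, 0 (0 to 1) for N100 and 21 (5 to 205) for H100 minus N100. The cause was not tested.

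The share of within-group variance on the leading component in eye was 75.0% with the array of another profile, 69.3% without low-correlation arrays and 68.03% from group and run, and 60.1% to 65.7% without single arrays. In lung it was 69.8% with members scaled to their SD and 82.4% from group and run, and 82.9% to 86.1% without single arrays. Between-group shares without single arrays ran from 17.2% to 23.0% in eye and 6.58% to 13.1% in lung. With the replicate number as a block, 1 member was called in eye (Ky, adjusted p = 0.0475) and 0 in lung. Deviations of arrays that share a number correlated at 0.078 on average in eye (131 pairs) and 0.157 in lung (139), against -0.0063 and -0.014 for other pairs. The best match of 15 of 56 eye and 12 of 60 lung arrays had their own number. The count that chance would give was not computed, and the numbers were not taken as pairs. In lung 19 members lie in the brighter 60% of genes against 32 in eye, so signal over background limits the dim members there.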
